A study of Mus musculus with 12 samples.

Results

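The genes described here are 10 components of the circadian clock: Arntl, Clock, Npas2, Per1, Per2, Per3, Cry1, Nr1d1, Nr1d2 and Dbp. They were chosen by symbol as core clock and clock output genes, all 10 were found among the 23337 gene symbols of the count files, and all 10 passed the filter on low counts that left 14134 genes for testing. They were followed library by library and between genotype groups in mouse oesophageal epithelium.

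The circadian clock is a feedback loop of transcription that runs in most cells of the body with a period of about a day. ARNTL (also called BMAL1) pairs with CLOCK or NPAS2, binds DNA elements called E-boxes and drives the Period and Cryptochrome genes, the nuclear receptor genes Nr1d1 and Nr1d2 (REV-ERB alpha and beta) and the output gene Dbp. PER and CRY proteins repress ARNTL and CLOCK, and the REV-ERB proteins repress Arntl itself, so in mouse tissues Arntl and Npas2 transcripts peak at nearly the opposite time of day to those of Dbp, Nr1d1 and the Per genes.

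Polyadenylated RNA was sequenced from oesophageal epithelium, from which stroma was removed per the labels, of C57BL/6 mice aged 6 weeks, with 3 libraries in each of 4 groups. The combined group carried ED/L2-Cre, a recombinase under an Epstein-Barr virus promoter that the study used for its activity in oesophageal epithelial cells, together with 1 copy (per the sample labels) of ROSA26-StopFL-Ikk2ca, a gene for constitutively active IKKβ behind a removable stop, and with both copies of Stat3 flanked by loxP sites. The active IKKβ group carried ED/L2-Cre and ROSA26-StopFL-Ikk2ca. The Stat3 loss group carried ED/L2-Cre and the floxed Stat3 alleles, and the Control group carried ROSA26-StopFL-Ikk2ca and floxed Stat3 without Cre. The 3 other groups therefore differ from Control in Cre as well as in what Cre switches. IKKβ is the kinase that activates the NF-κB transcription factors, and Stat3 encodes a transcription factor of cytokine signalling. The hour of harvest is not given in the sources used here. The labels do not say whether replicates are separate animals, so p-values measure the spread between these libraries.

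Libraries held 14816468 to 30188363 counts. No Stat3 or Ikbkb difference between 2 groups passed the test described below. Stat3 had 154 to 194 CPM (counts scaled to 1000000 per library) in the combined group, 158 to 239 in active IKKβ, 139 to 154 in Stat3 loss and 157 to 179 in Control. Ikbkb, the mouse IKKβ gene, had 83.4 to 97.0 CPM in the combined group, 84.6 to 97.7 in active IKKβ, 61.2 to 72.4 in Stat3 loss and 59.7 to 82.6 in Control. Averaged over both Stat3 backgrounds, Ikbkb was higher with active IKKβ by 0.43 ± 0.10 (log2, SE, edgeR adjusted p 0.0373). Counts over whole genes do not show which exons were lost. In each group replicate 1 had Xist, the transcript of the inactive X chromosome, at 18462 to 28242 counts, while replicates 2 and 3 had 7 to 37, so replicate number and sex go together. Krt4 and Krt13, keratins of the upper oesophageal layers, took 4.05 to 13.9% of counts. Transcripts of 8 gastric genes summed to 51.2 CPM in active IKKβ replicate 1, to 3.33 in Stat3 loss replicate 3 and to at most 0.701 elsewhere. Tff1 made up most of the first sum, at 48.7 CPM, and of the second, at 2.78 CPM. In the library with the first sum Muc5ac had 2.27 CPM, Atp4a 0.142 and Atp4b 0.0473, and Gkn1, Gkn2, Pgc and Gif had 0. Transcripts of deeper layers were present in all libraries, with 8 skeletal muscle genes summing to 22.4 to 1550 CPM, 5 smooth muscle genes to 735 to 3420 and 5 fibroblast genes to 515 to 2240. The sums of 6 leukocyte genes were 11.4, 19.5 and 15.3 CPM in combined, 30.6, 27.5 and 29.8 in active IKKβ, 14.2, 12.1 and 7.42 in Stat3 loss and 11.5, 15.8 and 10.1 in Control. In active IKKβ against Control, edgeR called 1 of the 5 tested, Itgax (log2 fold change 2.28 ± 0.44, adjusted p 0.0391), beside 0.955% of all genes. The part of leukocytes in the clock gene values was not tested.

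Promoters of clock genes can hold short DNA elements through which the clock acts, and the stretches below surround matches near a start site of 4 members. RefSeq start sites on GRCm38.p6 were available for 9 of the 10 members in 13 windows, each of 250 bases before and 50 bases after a start, and Per2 was not among them. Searched on both strands, the E-box CACGTG was present in 7.15% of 32851 mouse promoters, its variant CACGTT in 4.68%, the D-box TTATGTAA or TTACGTAA, to which DBP and its relatives bind, in 1.06%, and TAGGTCA, the core of the element that REV-ERB and ROR receptors bind, in 2.61%. The variant reads AACGTG on the other strand. The motifs searched do not overlap in the sequences below, whose capitals mark the matches, and each is written on the gene's strand. A match describes letters in a window and nothing about binding.
Arntl, chr7:113207530-113207558, plus strand: aaggcagaaagTAGGTCAgggacggaggt
Cry1, chr10:85185055-85185304, minus strand: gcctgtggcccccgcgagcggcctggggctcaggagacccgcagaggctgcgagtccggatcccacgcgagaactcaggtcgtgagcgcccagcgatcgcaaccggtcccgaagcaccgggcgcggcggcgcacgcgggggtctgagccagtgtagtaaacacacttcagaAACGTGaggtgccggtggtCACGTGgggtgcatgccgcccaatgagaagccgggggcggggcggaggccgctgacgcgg
Per1, chr11:69098699-69098948, plus strand: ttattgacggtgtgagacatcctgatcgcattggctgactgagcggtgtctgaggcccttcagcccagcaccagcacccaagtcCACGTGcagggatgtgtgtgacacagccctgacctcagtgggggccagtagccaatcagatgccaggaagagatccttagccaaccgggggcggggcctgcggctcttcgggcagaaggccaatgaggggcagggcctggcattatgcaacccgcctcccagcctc
Per3, chr4:151044666-151044915, minus strand: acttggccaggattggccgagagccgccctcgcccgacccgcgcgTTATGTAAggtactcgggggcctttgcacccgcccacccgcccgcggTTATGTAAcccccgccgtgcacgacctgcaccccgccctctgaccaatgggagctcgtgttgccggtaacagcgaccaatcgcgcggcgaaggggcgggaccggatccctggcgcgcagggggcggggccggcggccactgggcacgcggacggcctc

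Arntl thus carries the REV-ERB core within its first exon, Cry1 and Per1 carry an E-box, and Per3 carries a pair of D-boxes. Counted from the start site, the first bases of these matches lie at +31 of the second Arntl start, at -60 in Cry1 (the E-box) and -79 (its variant), at -166 in Per1, and at -205 and -158 in Per3. Nr1d1 held the E-box variant at -28. No match to the 4 motifs was found in the windows of Clock, Npas2, Nr1d2 or Dbp.

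Per kilobase of exon, Nr1d1 was the most abundant member, with a median of 91.8 CPM per kilobase over the 12 libraries. Dbp followed at 18.3, Nr1d2 at 15.2, Per1 at 14.3, Clock at 7.44, Per2 at 5.99, Per3 at 5.13, Npas2 at 4.14, Arntl at 3.42 and Cry1 at 2.97 CPM per kilobase. Nr1d1 ranged from 16.4 to 118 CPM per kilobase and Dbp from 0.717 to 49.7. All neighbours in this order overlapped in their ranges over the libraries.

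Arntl (chromosome 7, 113207465 to 113314126 on GRCm38, plus strand), the partner that CLOCK and NPAS2 both need, had 54.5, 19.6 and 80.6 CPM in combined replicates 1 to 3. It had 22.7, 27.3 and 24.1 CPM in the active IKKβ group, 29.7, 62.2 and 31.3 CPM in Stat3 loss and 19.4, 15.2 and 20 CPM in Control. Combined replicates 1 and 3 and Stat3 loss replicate 2 were high, and combined replicate 2 sat at the Control level. The active IKKβ and Stat3 loss libraries lay above those of Control without overlap, while the combined group overlapped Control through replicate 2. Its log2 fold change against Control was 1.5 ± 0.43 (SE) in the combined group, with an edgeR adjusted p of 0.174. It was 1.17 ± 0.43 (adjusted p 0.566) in Stat3 loss and 0.44 ± 0.42 (adjusted p 0.701) in active IKKβ, and none of the 3 passed edgeR's test.

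Npas2 (chromosome 1, 39193731 to 39363236, plus strand), which can stand in for CLOCK, had 32.1, 19.1 and 30.7 CPM in the combined group, 24.7, 18.8 and 14.9 CPM in active IKKβ, 23.5, 36.7 and 20.6 CPM in Stat3 loss and 18.6, 16.2 and 14.4 CPM in Control. Like Arntl, it was lowest of the combined libraries in replicate 2 and highest of the Stat3 loss libraries in replicate 2. Both groups with floxed Stat3 and Cre lay above Control in every library, the combined group with a log2 fold change of 0.74 ± 0.27 (edgeR adjusted p 0.299) and Stat3 loss with 0.72 ± 0.27 (adjusted p 0.579). Without Stat3 loss replicate 2, the value of Stat3 loss against Control was 0.43 for Npas2 and 0.74 for Arntl. In these groups 4 of 5 smooth muscle genes also lay apart from Control, below it, against 15% of all genes in combined and 13.1% in Stat3 loss. The 5 summed to 958, 1460 and 1090 CPM in combined, 823, 1310 and 735 in Stat3 loss and 1500, 1620 and 2020 in Control. In active IKKβ they summed to 927, 876 and 3420 CPM, so low sums were not confined to the groups with Stat3 loss. Nerve and glia genes lay below Control without overlap for 4 of 5 in combined and 0 of 5 in Stat3 loss. For 4 adipocyte genes the median log2 fold change against Control was -6.52 in combined and -5.46 in Stat3 loss. Apart from Control lay 0 and 1 of them, and Control replicates 1 to 3 had adipocyte sums of 8.89, 154 and 38.1 CPM. The part of these tissues in the Arntl and Npas2 values was not tested. Clock (chromosome 5, 76209868 to 76304792, minus strand), whose protein also acetylates histones, had 128, 78.9 and 143 CPM in the combined group, 82.7, 132 and 123 in active IKKβ, 88.7, 96.3 and 108 in Stat3 loss and 66, 73.1 and 115 in Control. All 4 groups overlapped one another, and its fold change against Control was 0.46 ± 0.26 (log2, adjusted p 0.565) in the combined group.

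Among the repressors, Cry1 (chromosome 10, 85131700 to 85185064, minus strand), a flavoprotein that inhibits ARNTL and CLOCK directly, had 9.4, 6.1 and 20.4 CPM in the combined group, 10.5, 12.9 and 19.0 in active IKKβ, 4.64, 6.2 and 6.93 in Stat3 loss and 7.27, 13.7 and 11 in Control. The 3 Stat3 loss libraries lay below the 3 Control libraries, with a log2 fold change of -0.86 ± 0.42 (edgeR adjusted p 0.691), and combined replicate 3 was highest of all. Combined against Stat3 loss gave 1.02 ± 0.42 (adjusted p 0.48), with overlap. Without combined replicate 3 this was 0.39.

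Per1 (chromosome 11, 69095217 to 69109960, plus strand), which also responds quickly to light and hormones, had 73.7, 111 and 60.2 CPM in the combined group, 105, 51.6 and 85.1 in active IKKβ, 125, 36.4 and 75.8 in Stat3 loss and 97.3, 104 and 34.7 in Control. Its group means lay close together, at 81.8 ± 26.5, 80.5 ± 26.9, 79.1 ± 44.5 and 78.6 ± 38.1 CPM in combined, active IKKβ, Stat3 loss and Control (SD, n = 3 each). Per1 therefore varied within groups rather than between them.

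Per2 (chromosome 1, 91415982 to 91459324, minus strand), a PER protein whose stability sets the period, had 7.61, 77.7 and 14.6 CPM in the combined group, 80.1, 20.3 and 44.4 in active IKKβ, 43.4, 11 and 26.7 in Stat3 loss and 81.7, 59.0 and 18.6 in Control. The libraries at the ends differed by 10.2-fold in the combined group and by 3.94- to 4.39-fold in each of the other 3. Per3 (chromosome 4, 151003652 to 151044665, minus strand), the third Period gene, had 35.0, 73.9 and 16.8 CPM in the combined group, 65.3, 39.3 and 49.4 in active IKKβ, 109, 32.0 and 49.2 in Stat3 loss and 116, 73.7 and 43.6 in Control. In both genes combined replicate 2 was the high one of its group and replicate 1, the library with high Xist, was the high one in the other 3 groups, and the part of sex in this was not tested. Against Control, Per3 had a log2 fold change of -0.89 ± 0.56 (edgeR adjusted p 0.611) and Per2 of -0.67 ± 0.85 (adjusted p 0.862) in the combined group. Without combined replicate 2 these were -1.58 and -2.25. With replicates 2 and 3 of each group alone, Per2 stood at 0.25, the opposite sign.

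Nr1d1 (chromosome 11, 98767932 to 98775333, minus strand) encodes REV-ERB alpha, the haem-binding repressor of Arntl. It had 132, 277 and 50.6 CPM in the combined group, 265, 188 and 165 in active IKKβ, 364, 307 and 288 in Stat3 loss and 322, 326 and 298 in Control. Both groups with active IKKβ lay below Control without overlap, and the combined group also lay below Stat3 loss. The log2 fold change was -1.04 ± 0.45 (edgeR adjusted p 0.39) in combined against Control, -1.06 ± 0.45 (adjusted p 0.505) in combined against Stat3 loss and -0.61 ± 0.44 (adjusted p 0.594) in active IKKβ against Control. Without combined replicate 2, the first of these was -1.79 and the second -1.81. Stat3 loss averaged 319 ± 39.7 CPM and Control 315 ± 15.2 CPM (SD, n = 3 each). Nr1d1 shares 263 exon bases, 8.55% of its exons, with Thra on the opposite strand, and the strand setting of the counting is not given in the sources used here. Thra held 28.7 to 35.5 CPM in the combined group, 33.1 to 35.8 in active IKKβ, 41.7 to 51.5 in Stat3 loss and 34.3 to 40.4 in Control.

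Nr1d2 (chromosome 14, 18204054 to 18239127, minus strand), the gene of REV-ERB beta, had 53.8, 161 and 22.9 CPM in the combined group, 87.9, 60.7 and 68.1 in active IKKβ, 131, 76.3 and 91.0 in Stat3 loss and 120, 106 and 66.8 in Control. Combined replicate 2 was the highest of all 12 libraries and combined replicate 3 the lowest. Its log2 fold change of combined against Control was -0.30 ± 0.54, with an edgeR adjusted p of 0.922, and was -1.35 without combined replicate 2.

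Dbp (chromosome 7, 45705088 to 45710203, plus strand) encodes a PAR bZIP transcription factor that carries the clock to metabolic genes. It had 7.06, 82.4 and 2.15 CPM in the combined group, 52.7, 31.5 and 32.0 in active IKKβ, 109, 43.9 and 67.9 in Stat3 loss and 117, 149 and 56.7 in Control. Combined replicates 1 and 3 were far below every other library, and combined replicate 2 lay within the Control range, so that the combined libraries differed by 38.4-fold from lowest to highest. In Control the same span was 2.63-fold, in Stat3 loss 2.48-fold and in active IKKβ 1.67-fold. The log2 fold change was -1.82 ± 0.98 (edgeR adjusted p 0.53) in combined against Control and -1.47 ± 0.97 (adjusted p 0.56) in active IKKβ against Control, where the groups did not overlap. Dbp shares 539 exon bases, 18.0% of its exons, with Sphk2 on the opposite strand. Sphk2 held 120 CPM in combined replicate 3, where Dbp was lowest, and 78.1 to 143 CPM over all libraries.

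**Figure D1:**
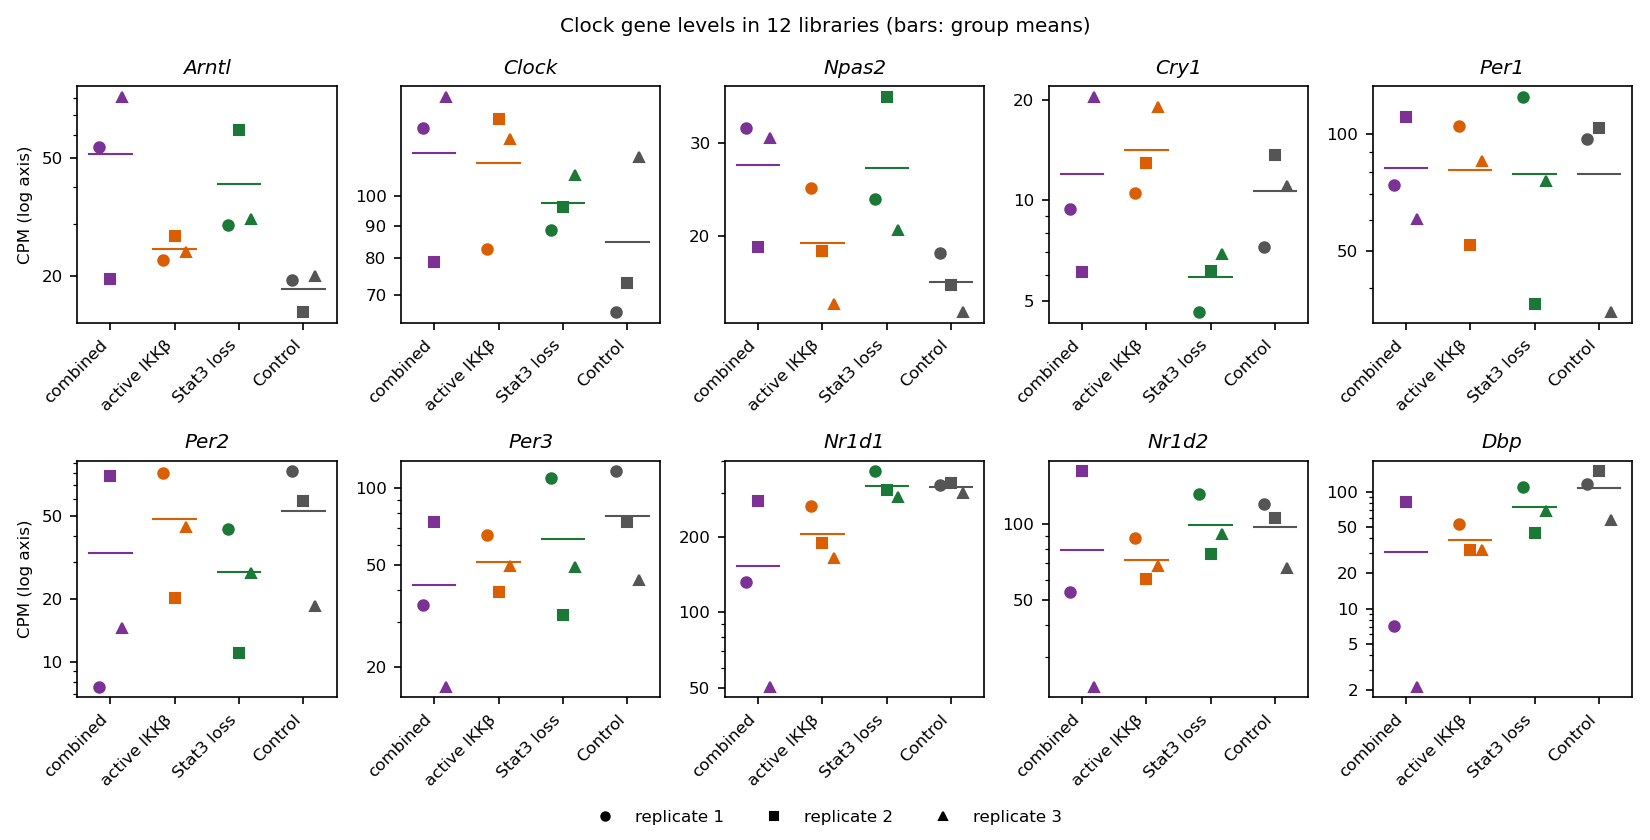
CPM on a log axis for each of the 10 clock genes in the combined, active IKKβ, Stat3 loss and Control groups; symbols are replicates 1 to 3 and bars are group means. Combined replicate 2 sits apart from combined replicates 1 and 3, with Dbp at 82.4 CPM against 7.06 and 2.15, and Arntl at 19.6 CPM against 54.5 and 80.6.

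Set against each other within a library, the counts of Dbp and Arntl need no scaling between libraries. The log2 ratio of Dbp to Arntl counts was -2.95, 2.07 and -5.23 in combined replicates 1 to 3, 1.21, 0.21 and 0.41 in active IKKβ, 1.87, -0.50 and 1.12 in Stat3 loss and 2.59, 3.29 and 1.5 in Control. Combined replicate 3 had 41 Dbp and 1540 Arntl counts, or 37.6 Arntl counts for each Dbp count. Control replicate 2, at the other end, had 2846 Dbp and 291 Arntl counts, or 9.78 Dbp counts for each Arntl count. The ratio spanned 7.3 log2 units within the combined group, 1.0 in active IKKβ, 2.37 in Stat3 loss and 1.79 in Control. The 3 Control libraries and combined replicate 2 all lay on the side where Dbp exceeded Arntl, as did all active IKKβ libraries and Stat3 loss replicates 1 and 3.

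**Figure D2:**
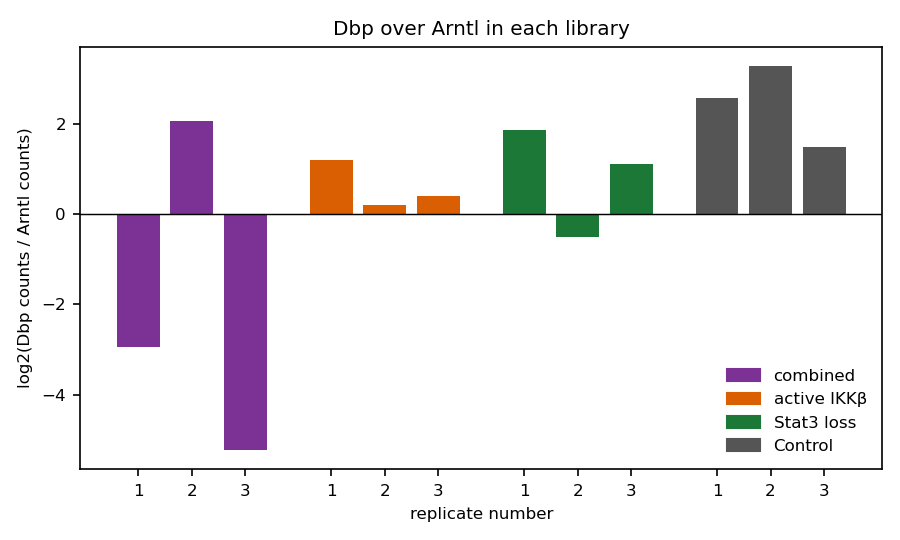
Log2 ratio of Dbp to Arntl counts (y axis) in each library, by genotype group and replicate number (x axis); bars start at 0, where both counts are equal. Combined replicates 1 and 3 reach -2.95 and -5.23 while combined replicate 2 stands at 2.07, inside the Control range of 1.5 to 3.29.

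The share of counts taken by Krt4 and Krt13 varied beside these levels. It was 11.6, 4.05 and 13.4% in combined replicates 1 to 3, 5.06, 13.8 and 12.8% in active IKKβ, 6.01, 6.62 and 10.4% in Stat3 loss and 5.22, 6.22 and 13.9% in Control. In the combined, active IKKβ and Stat3 loss groups the library with the lowest keratin share had the highest Dbp, whereas in Control that library had the second highest Dbp. Clock ranked in the same order as the keratin share within each of the 4 groups. It had 128, 78.9 and 143 CPM in combined, 82.7, 132 and 123 in active IKKβ, 88.7, 96.3 and 108 in Stat3 loss and 66, 73.1 and 115 in Control. The part of the keratin share in the clock gene values and in their correlations was not tested. In bulk tissue, a smaller number of cells of a type and less RNA per cell cannot be told apart.

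Within groups, the clock genes varied more than most genes. The pooled within-group SD of log2 CPM (8 degrees of freedom) was 1.43 for Dbp, higher than in 98.6% of the 14134 genes tested, and 1.24 for Per2, higher than in 97.9%. It was 0.80 for Per3, 0.78 for Nr1d2, 0.72 for Per1, 0.65 for Nr1d1, 0.62 for Arntl and 0.56 for Cry1, against 0.37 for Clock and 0.36 for Npas2. The median of the 10 was 0.68, where that of all genes tested was 0.28 and that of the 8707 genes with average levels between the lowest and the highest member was 0.20. An SD above 0.5 was found in 80% of the clock genes, 24.7% of all genes and 8.94% of the genes at like levels. Without combined replicate 2 alone, it was found in 4 of 10 clock genes (Per1, Per2, Per3 and Dbp), 22.7% of all genes and 7.64% of those at like levels, and the SD of Dbp was 0.72.

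Without the whole combined group the spread was narrower for some members and not for others. Calculated from the other 9 libraries, the SD was 0.61 for Dbp (higher than in 83.4% of genes), 0.23 for Nr1d1 (42.8%), 0.38 for Nr1d2 (66.2%) and 0.37 for Arntl (65.7%). Per2 and Per1, by contrast, had 1.04 (96.4%) and 0.79 (91.2%) without the combined group. Over those 9 libraries, Per1, Per2 and Per3 (0.69) had larger pooled SDs than Nr1d1, although within active IKKβ Per3 spanned 1.66-fold and Nr1d1 1.61-fold.

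Between genotypes, none of the 10 clock genes passed edgeR's quasi-likelihood test at an adjusted p of 0.05 in any of 6 comparisons. In combined against Control, where 0.884% of all genes were called, 0 of 10 were called, 3 of 10 (Arntl, Npas2 and Nr1d1) had an unadjusted p below 0.05 beside 11.5% of all genes, and DESeq2 called 1, Arntl. Groups did not overlap for 2 of 10, Npas2 and Nr1d1, against 15% of all genes. The median absolute log2 fold change was 0.70 over the members and 0.19 over all genes, with 5 members above and 5 below 0. Without combined replicate 2, edgeR called 2 members, Dbp at -4.54 (adjusted p 0.0171) and Arntl at 1.89 (adjusted p 0.0285), among 104 of 14374 genes. Without combined replicate 3 it called 0, and Arntl stood at 1.01.

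In active IKKβ against Control, edgeR called 0 of 10 members beside 0.955% of all genes, with 0 at an unadjusted p below 0.05 beside 13% of all genes, and DESeq2 called 0. Groups did not overlap for 3 of 10, with Arntl higher and Nr1d1 and Dbp lower in active IKKβ, against 17.6% of all genes. In Stat3 loss against Control, edgeR called 0 of 10 members and 0% of all genes, 2 members (Arntl and Npas2) had an unadjusted p below 0.05 beside 7.5% of all genes, and DESeq2 called 0. Groups did not overlap for 3 of 10, with Arntl and Npas2 higher and Cry1 lower in Stat3 loss, against 13.1% of all genes. With 3 libraries against 3, the exact permutation test of a single gene, two-sided, cannot go below p = 0.1, which all 8 of these non-overlapping differences against Control had.

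In combined against active IKKβ, edgeR called 0 of 10 members and 0% of all genes, 1 member (Arntl, 1.06 ± 0.42) had an unadjusted p below 0.05 beside 9.88% of all genes, DESeq2 called 0, and 0 of 10 did not overlap against 14.7% of all genes. In combined against Stat3 loss it called 0 of 10 beside 0.46% of all genes, 2 members (Cry1 and Nr1d1) had an unadjusted p below 0.05 beside 8.96% of all genes, and DESeq2 called 0. Only Nr1d1 did not overlap there, 1 of 10 against 12.9% of all genes. Without combined replicate 2, edgeR called Dbp in this comparison, at -3.99 (adjusted p 0.0388), among 42 of 14374 genes. The interaction, which asks whether active IKKβ had the same effect with and without Stat3 loss, gave 0 of 10 members and 0% of all genes, 0 members at an unadjusted p below 0.05 beside 4.66% of all genes, and 0 by DESeq2. The comparisons against Control share its libraries, and those of the combined group share that group's libraries.

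**Figure D3:**
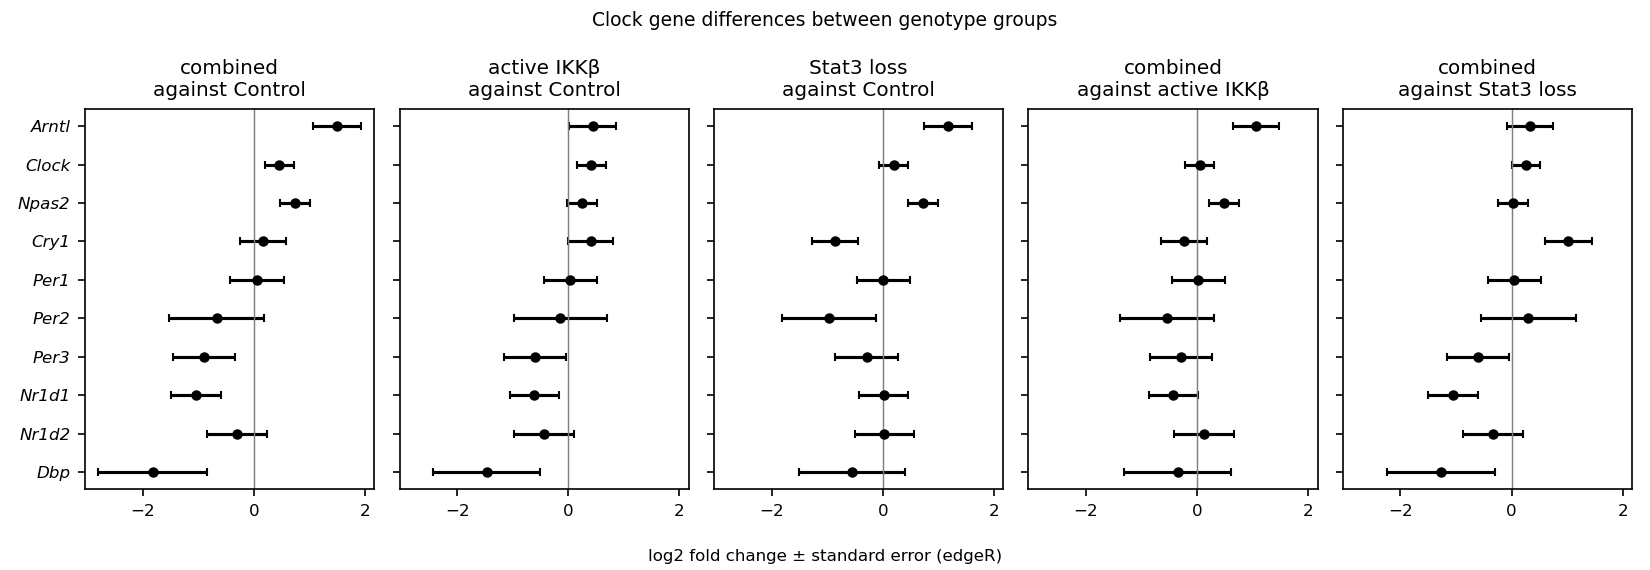
Log2 fold change with its standard error (x axis) of each clock gene (y axis) in the 5 comparisons between groups, from edgeR. Arntl and Npas2 lie above 0 in combined and in Stat3 loss against Control, at 1.5 and 0.74 and at 1.17 and 0.72, Dbp has the widest bars, and no member passed the test.

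Averaging each genotype change over both backgrounds used 6 libraries against 6 and was added after seeing the data. For Stat3 loss, edgeR called 0 of 10 members beside 0.262% of all genes, 2 (Arntl and Npas2) had an unadjusted p below 0.05 beside 12.7% of all genes, and DESeq2 called 1, Arntl. Arntl averaged 46.3 ± 23.3 CPM in the 6 libraries with Stat3 loss and 21.5 ± 4.2 CPM in the 6 without (SD), a log2 fold change of 1.12 ± 0.30 with an adjusted p of 0.182 and an exact permutation p of 0.02 within backgrounds. Npas2 averaged 27.1 ± 7.06 CPM with Stat3 loss and 17.9 ± 3.78 CPM without, a log2 fold change of 0.60 ± 0.19 (adjusted p 0.217, exact permutation p 0.025). For 0 of 10 members did the 6 libraries with Stat3 loss lie apart from the 6 without, against 1.04% of all genes.

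For active IKKβ averaged in the same way, edgeR called 0 of 10 members beside 2.72% of all genes, 2 (Cry1 and Nr1d1) had an unadjusted p below 0.05 beside 15.5% of all genes, and DESeq2 called 0. Nr1d1 averaged 180 ± 84.8 CPM in the 6 libraries with active IKKβ and 317 ± 27.0 CPM in the 6 without (SD). All 6 lay below the other 6, which held for 1 of 10 members against 2.16% of all genes. Its log2 fold change was -0.84 ± 0.31 (adjusted p 0.222), and its exact permutation p of 0.005 is the smallest that 400 arrangements within backgrounds can give in a two-sided test. Dbp averaged 34.6 ± 29.8 CPM with active IKKβ and 90.4 ± 40.6 CPM without, a log2 fold change of -1.37 ± 0.69 (adjusted p 0.375, exact permutation p 0.035). Cry1 averaged 13.0 ± 5.62 CPM with active IKKβ and 8.30 ± 3.41 CPM without, a log2 fold change of 0.71 ± 0.29 (adjusted p 0.27, exact permutation p 0.08), and 0.39 (adjusted p 0.538) without combined replicate 3. Without combined replicate 2, edgeR called Nr1d1 and Dbp, at -1.21 and -2.73, among 371 of 14374 genes.

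Across the 12 libraries the Per genes, the Nr1d genes and Dbp varied together, and against most of the other 4 members. All 15 pairs among the Per genes, the Nr1d genes and Dbp correlated positively, with a median Pearson r of 0.74, and 11 of them had a permutation p below 0.05 after adjustment over the 45 pairs. All 24 pairs of one of these with Arntl, Clock, Npas2 or Cry1 correlated negatively, with a median r of -0.62, 12 of them with an adjusted p below 0.05. The permutations shuffled all 12 libraries regardless of group, so differences between groups also enter these p-values. The share of other gene pairs with such p-values is not given here, so these counts alone do not set the clock genes apart from other genes. The 6 pairs among Arntl, Clock, Npas2 and Cry1 ran from -0.24 to 0.86, and 1 of them, Npas2 with Arntl, had an adjusted p below 0.05. With group means subtracted, the signs were the same in 15 of 15 and 24 of 24 pairs, with median r of 0.82 and -0.76. Without the 2 libraries farthest from the median of the gene on the x axis, 15 of 15 and 22 of 24 pairs kept their sign.

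Dbp and Nr1d1 had the highest correlation, with r = 0.95 and Spearman's rho = 0.87. Their permutation p of 1e-05, adjusted to 0.00045 (0.0034 for rho), is the smallest that 100000 resamples can give, and r was 0.81 without combined replicates 1 and 3. Dbp and Nr1d2 had r = 0.91 and rho = 0.89 (adjusted permutation p 0.00067 and 0.0034), with r of 0.79 without the same libraries and 0.98 with group means subtracted. Dbp and Arntl had r = -0.80 and rho = -0.73 (permutation p 0.0024 and 0.0097, adjusted 0.0083 and 0.023). This r was -0.46 without combined replicates 1 and 3, so its size rests in good part on those libraries. Over replicates 2 and 3 of each group, which share their sex, it was -0.79.

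Dbp and Clock had r = -0.79 and rho = -0.90 (adjusted permutation p 0.0035 and 0.0034), and r was -0.82 without combined replicates 1 and 3. Clock also ranked with the Krt4 and Krt13 share within each group, and the part of that share in this r was not tested. Nr1d1 and Arntl, a repressor and the gene it represses, had r = -0.67 and rho = -0.45 (adjusted permutation p 0.031 and 0.21), and r was 0.00 without combined replicates 1 and 3, so that relation rests on those libraries. Npas2 and Arntl had r = 0.86 and rho = 0.75 (adjusted permutation p 0.004 and 0.021), and r was 0.76 without combined replicate 1 and Stat3 loss replicate 2. Cry1 and Arntl had r = 0.08 (adjusted permutation p 0.80), and 0.60 with group means subtracted.

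**Figure D4:**
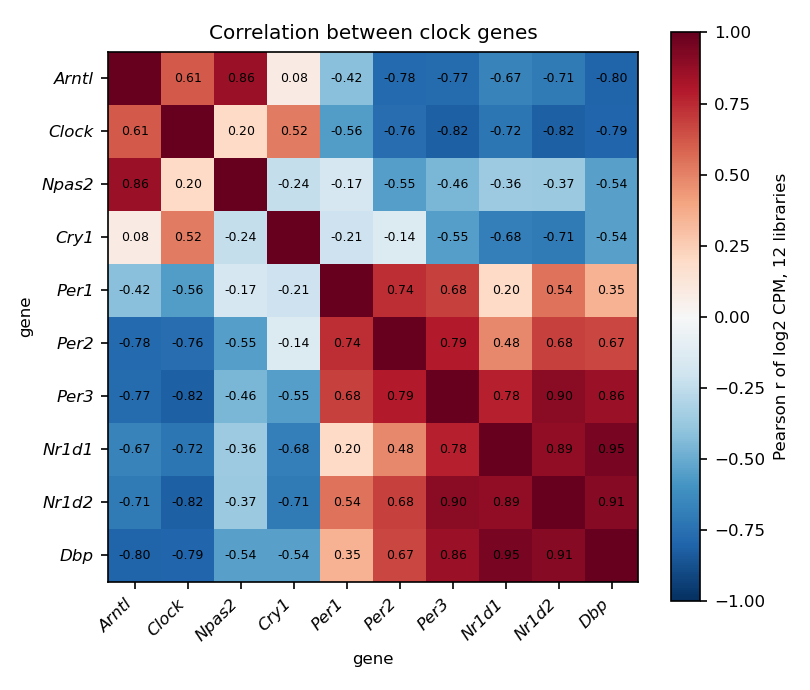
Pearson r of log2 CPM over 12 libraries for each pair of the 10 clock genes on both axes, with colour from -1 (blue) to 1 (red). The Per, Nr1d and Dbp genes form a red block that reaches 0.95 and are blue against Arntl, Clock, Npas2 and Cry1, down to -0.82.

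Of 19 further clock genes, 17 were tested, among them Ciart under its older symbol Gm129, and Rorb and Fbxl21 were below the filter. Timeless was the one called, lower in combined against Control (0 higher and 1 lower of 17, beside 0.884% of all genes), and edgeR called 0 of 17 in each of the other 5 comparisons. Unadjusted p was below 0.05 for 4 of 17 in combined against Control (11.5% of all genes), 4 in combined against Stat3 loss (8.96%) and 3 in combined against active IKKβ (9.88%). It was for 1 in active IKKβ against Control (13%), 1 in Stat3 loss against Control (7.5%) and 0 in the interaction (4.66%). DESeq2 called Timeless in combined against Control among 476 genes. It also did so in Stat3 loss against Control (106 genes) and in combined against active IKKβ (131), and called no further partner in the 6 comparisons. For active IKKβ averaged over both backgrounds, edgeR called 0 of 17, 6 had an unadjusted p below 0.05 beside 15.5% of all genes, and DESeq2 called 1, Nfil3, among 860 genes. For Stat3 loss averaged in the same way, edgeR called 1 of 17, Timeless, beside 0.262% of all genes. Unadjusted p was below 0.05 for 2 beside 12.7% of all genes, and DESeq2 called 1, Timeless, among 402 genes. Mammalian TIMELESS acts mainly at replication forks, and its place in the clock is debated. It had 12.5, 9.18 and 7.12 CPM in the combined group, 27.9, 19.1 and 28.1 in active IKKβ, 16.1, 11.6 and 15.5 in Stat3 loss and 30.2, 35.9 and 20.6 in Control. Timeless was lower in all 6 libraries with Stat3 loss than in the 6 without, which held for 1 of 17 partners against 1.04% of all genes. Its log2 fold change was -1.59 ± 0.27 in combined against Control (edgeR adjusted p 0.02) and -1.19 ± 0.19 for Stat3 loss averaged over both backgrounds (adjusted p 0.0348). The averaged result was called in 7 of 21 other settings, with adjusted p from 1.11e-06 to 0.246, and its call was lost with a replicate block (0.0503) and in 10 of the 12 fits that leave out 1 library (0.0543 to 0.114). In combined against Control it was called in 14 of 22 other settings, with adjusted p from 2.75e-06 to 0.19. The call was lost in the other 8, among them without Control replicate 1 (0.0724) or 2 (0.0951) or combined replicate 2 (0.071) or 3 (0.0828). Its r with Dbp was 0.61 over the 12 libraries and 0.393 with group means subtracted, and with Arntl -0.74 and -0.409.

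The 6 tested partners that varied most within groups moved with Dbp or against it. With group means subtracted, r with Dbp over 12 libraries was 0.956 for Tef, a PAR bZIP relative of Dbp, 0.895 for Ciart, a repressor of ARNTL and CLOCK, 0.860 for Bhlhe41, an E-box repressor, and 0.819 for Wee1, a cell cycle kinase driven by the clock. It was -0.917 for Nfil3, which competes with DBP at D-boxes, and -0.808 for Rora, the receptor that activates Arntl where REV-ERB represses it. Without subtracting group means it was 0.97, 0.89, 0.93 and 0.65 for Tef, Ciart, Bhlhe41 and Wee1, -0.80 for Nfil3 and -0.34 for Rora. These values describe 12 libraries that share their scaling. With group means subtracted, the combined libraries weigh most in r, as the SD of Dbp was 1.43 with that group and 0.61 without it. The r without the combined group is not given here.

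Tef had 131, 327 and 65.9 CPM in combined replicates 1 to 3, 261, 195 and 214 in active IKKβ, 448, 258 and 311 in Stat3 loss and 470, 384 and 210 in Control. Ciart had 2.55, 5.81 and 0.523 CPM in the combined group, 7.52, 3.92 and 5.98 in active IKKβ, 7.66, 2.02 and 5.56 in Stat3 loss and 8.95, 10.9 and 4.53 in Control. Nfil3 had 9.31, 2.56 and 12.2 CPM in the combined group, 6.05, 11.5 and 10.1 in active IKKβ, 2.43, 5.67 and 3.6 in Stat3 loss and 2.29, 3.5 and 5.11 in Control. In all 3 genes combined replicate 2 again lay outside the span of combined replicates 1 and 3, on the side where all 3 Control libraries lay. RefSeq promoter windows of Ciart held 3 E-boxes, at -116, -58 and -44, those of Tef and Bhlhe41 an E-box each, and that of Nfil3 the REV-ERB core at -12. The window of Timeless held a D-box at -157 and that of Cry2 the E-box variant at -166. No match was found in the windows of Rora, Hlf, Csnk1e, Arntl2 and Usp2. Csnk1d, named after its values were seen, kept 210 to 243 CPM in all 12 libraries.

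**Figure D5:**
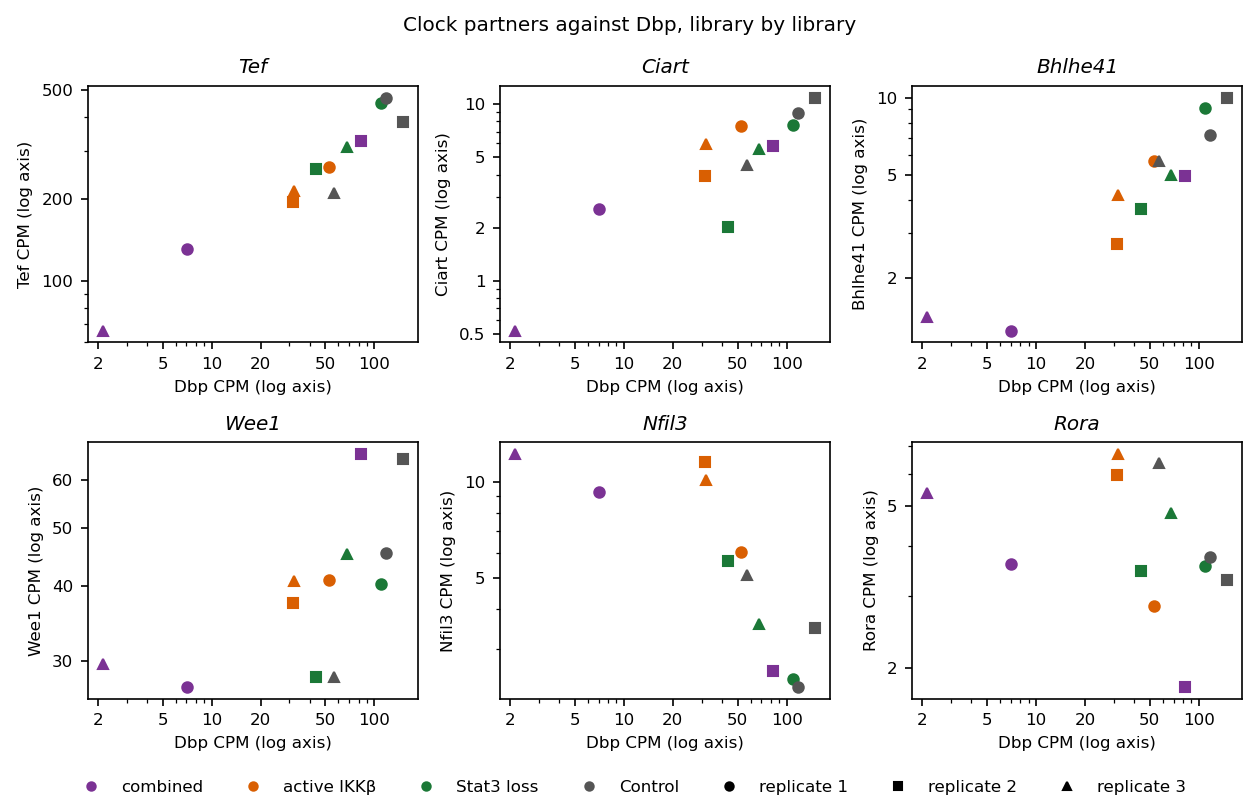
CPM of 6 clock partners (y axes) against CPM of Dbp (x axes) in 12 libraries, on log axes; colour is the genotype group and symbol the replicate. Tef runs with Dbp, at 65.9 CPM in combined replicate 3 and 470 CPM in Control replicate 1, and Nfil3 runs against it, at 12.2 and 2.29 CPM in the same libraries.

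Over all 11854 genes with an average log2 CPM of at least 1, members aside, likeness was ranked by Pearson r of log2 CPM over 12 libraries with group means subtracted. Closest to Dbp were Slc25a21 (0.974), Tef (0.956), Tmem160 (0.956), Fam175a (0.955) and Mtrr (0.951), so a known clock gene ranked 2. Without subtracting group means, r with Dbp was 0.97 for Tef, 0.47 for Tmem160 and 0.28 for Slc25a21. The combined libraries weigh most in this ranking. The within-group SD was 1.43 for Dbp and 0.62 for Arntl, and 0.61 and 0.37 without the combined group. Closest to Arntl were 1110008J03Rik (0.949), Synj2 (0.940), Apcdd1 (0.940), Diap3 (0.928) and Fam83g (0.926), with Nfil3 at rank 37 (0.868). Synj2 had 64.4, 51.9 and 70.6 CPM in the combined group, 56.0, 60.1 and 59.2 in active IKKβ, 65.7, 68.6 and 62.1 in Stat3 loss and 51.5, 49.2 and 51.8 in Control, a span far narrower than that of Arntl.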

How the data were processed

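Per the submitters' processing notes, the tools named are cutadapt 1.13, STAR, HTSeq 0.6.1p1 and DESeq2, with build mm10, and the deposited files hold raw read counts per gene symbol. The annotation and strand setting are not given in the sources used here.

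The 10 clock genes, the lists and the tests were chosen with earlier results of these data known. Counts of all 12 libraries were fitted in 1 quasi-likelihood model of 4 groups with edgeR 4.0.16 (limma 3.58.1, R 4.3.3): filterByExpr left 14134 genes, TMM factors scaled libraries, log2 CPM used a prior count of 2, and Benjamini-Hochberg adjustment ran over all genes tested, with a threshold of 0.05. CPM values are counts scaled to TMM-adjusted library sizes of 1000000. The SE of each log2 fold change was derived from the test, as its absolute value divided by the square root of the quasi-likelihood F statistic. Correlations used 100000 permutations. Alternatives were DESeq2 1.42.0, its size factors, library totals alone, other count filters, no robust estimation, fits of the 2 groups compared, a replicate block, replicates 2 and 3 alone, and leaving out each library or both with gastric transcripts. Genes singled out beyond the rule were chosen after their values were seen. The pipeline was tested on simulated data. Named genes were all members, the listed genes called in any comparison, up to 6 per list with the largest within-group SD, and the 5 genes most like Dbp and Arntl. Positions and exon lengths came from GENCODE M21. Over 66 pairs of libraries, the smallest chi-square per degree of freedom was 26.1, far above sampling noise.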

Additional observations from a re-analysis of the deposited data

How the results depend on the processing

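In combined against Control, members called by edgeR were 0, by DESeq2 1 (Arntl, adjusted p 0.0235), and 0 to 2 over the fits that leave out 1 library, with 2 reached without combined replicate 2. In combined against Stat3 loss the same fits called 0 to 1, the 1 again without combined replicate 2. For Stat3 loss averaged over both backgrounds DESeq2 called 1 (Arntl, adjusted p 0.0178), and for active IKKβ averaged, leaving out 1 library gave 0 to 2 (Nr1d1, adjusted p 0.0243, and Dbp, 0.00735, without combined replicate 2). Every other count stayed at 0. With a replicate block, 0 members were called in each comparison. Replicate numbers go with sex but the labels tie them to no animal or litter, and the libraries were not treated as paired: same-numbered libraries of 2 groups had correlations from -0.408 to 0.454, with 9 of 18 above 0.1. Of 1730 values of the 80 member fold changes under other settings, 1673 stayed within 1 SE, 50 moved further (23 without combined replicate 2 and 9 without combined replicate 3) and 7 became called. There were 104 changes of sign in 37 fold changes, none called. These were at most 0.67 (log2) as reported, and the changed values reached from -2.52 (Dbp in the interaction, without combined replicate 2) to 0.51. For all of these the cause was not tested. Over all genes, DESeq2 called 476 in combined against Control (edgeR 125), 442 in active IKKβ against Control (edgeR 135), 106 in Stat3 loss against Control (edgeR 0), 131 in combined against active IKKβ (edgeR 0), 297 in combined against Stat3 loss (edgeR 65) and 6 in the interaction (edgeR 0). Averaged over backgrounds DESeq2 called 402 for Stat3 loss (edgeR 37) and 860 for active IKKβ (edgeR 384). The SE of 0.98 (log2) for Dbp in combined against Control limits what could be resolved there.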

Other observations

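Other gene groups that respond to the state of an animal were followed in the same libraries, from lists chosen beside the clock genes. Of 10 genes that glucocorticoids regulate in many mouse tissues, 0 were called by edgeR in any of the 6 comparisons. Unadjusted p was below 0.05 for 3 in active IKKβ against Control (13% of all genes), 1 in combined against Stat3 loss (8.96%) and 0 in the rest. DESeq2 called 1, Sgk1, in active IKKβ against Control among 442 genes, and 0 in the other 5 comparisons. For active IKKβ averaged over both backgrounds it called Dusp1 and Sgk1 among 860 genes. Zbtb16, a zinc finger repressor induced by these hormones, varied most, with a within-group SD of 1.44 (log2). It had 2.6, 2.38 and 6.91 CPM in the combined group, 0.804, 9.09 and 18.7 CPM in active IKKβ, 7.57, 1.54 and 1.85 CPM in Stat3 loss and 5.65, 1.93 and 1.71 CPM in Control. Its highest and lowest library both belonged to the active IKKβ group. The others named by spread were Dusp1 (0.82), a phosphatase of stress kinases, Fkbp5 (0.70), a chaperone partner of the receptor, Tsc22d3 (0.68), also called GILZ, Cdkn1a (0.67), the p21 inhibitor, and Ddit4 (0.34). Tsc22d3 had 80, 175 and 83.3 CPM in the combined group, 110, 96.7 and 151 CPM in active IKKβ, 167, 89.8 and 110 CPM in Stat3 loss and 192, 219 and 57.5 CPM in Control.

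Of 8 genes that respond to temperature, 0 were called by edgeR or by DESeq2 in the 6 comparisons. Against Control, unadjusted p was below 0.05 for 3 in Stat3 loss (7.5% of all genes), 2 in combined (11.5%) and 1 in active IKKβ (13%). It was for 2 in combined against Stat3 loss (8.96%), 1 in combined against active IKKβ (9.88%) and 0 in the interaction (4.66%). Averaged over both backgrounds, edgeR called 0. DESeq2 called Hsph1 for Stat3 loss among 402 genes, and Hspa1a and Hspa1b for active IKKβ among 860. Their within-group SD ran up to 0.59 for Hsph1 and 0.56 for Hspa1a, both heat shock chaperones, with Dnajb1 at 0.47, Hspa8 at 0.45 and the cold-inducible RNA-binding genes Cirbp at 0.44 and Rbm3 at 0.41. Hspa8 had 181, 408 and 150 CPM in the combined group, 219, 243 and 247 CPM in active IKKβ, 258, 308 and 308 CPM in Stat3 loss and 306, 494 and 518 CPM in Control. In Hspa8 combined replicate 2 lay above combined replicates 1 and 3, as it did narrowly in Cirbp (48.8, 49.8 and 35.2 CPM). It lay below them in Hsph1 (137, 94.8 and 98.5 CPM), Dnajb1 (314, 211 and 303 CPM) and Hsp90aa1 (49.2, 36.4 and 40 CPM). In Hspa1a (122, 63 and 43.2 CPM), Hspa1b (187, 140 and 121 CPM) and Rbm3 (64.6, 62.1 and 34 CPM) it lay between them.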
